A study of Mus musculus with 90 samples.

Results

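The tibialis anterior (TA) muscle of the mouse was sequenced 3 days after cardiotoxin, in 3 libraries labelled mutant and 3 labelled WT. They were chosen by their labels and make up 6 of the 90 libraries of the series. The labelled mutant mice carried Pdgfra-Cre and floxed Piezo1 (f/f), and their libraries are named KO. The WT mice carried Pdgfra-Cre as well, with intact Piezo1 (+/+), so both groups share the Cre. In every TA group cardiotoxin (CTX), a snake venom toxin that kills muscle fibres, was injected into the muscle. Pdgfra-Cre acts in cells that have expressed Pdgfra, which in muscle marks mesenchymal stromal cells, whereas the RNA came from homogenised whole muscle with many cells that never carry the recombined gene. The same comparison at day 1 (4 libraries per genotype) and day 7 (3 per genotype) and in uninjured quadriceps of sedentary mice (3 per genotype) served to set day 3 in context. No source used here gives the age of the TA mice or says that replicates came from separate animals, so p-values measure the spread between these libraries, which may be technical.

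Piezo1 is a cation channel that opens when the cell membrane is stretched. After cardiotoxin the dead fibres are cleared by infiltrating monocytes and macrophages, muscle stem cells and other resident cells divide, and new fibres form from fusing myoblasts. Stromal cells of the Pdgfra lineage take part in this by releasing chemokines, growth factors and matrix.

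Total counts ran from 4051973 to 10226407 at day 3, lowest in labelled mutant library 1 and highest in labelled mutant library 2. WT library 3 stood apart from the other WT libraries, with the highest level of fibre genes and the lowest of cell cycle genes. Labelled mutant library 2 stood apart from the other labelled mutant libraries, with the lowest median level of collagen genes and of adipocyte markers. Levels are given as normalised CPM (library-size scaled counts with TMM factors), for libraries 1, 2 and 3 of a group in that order. Genes with a Benjamini-Hochberg adjusted p under 0.05 in the quasi-likelihood test of edgeR are referred to as called. The depth sets the counting error only, and the spread between libraries is carried by the standard error (SE) of each log2 difference, labelled mutant minus WT.

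Piezo1 itself (chr8 of mm10) measured 33.3, 19.4 and 34.5 CPM in labelled mutant TA, against 21.2, 31.4 and 31.2 CPM in WT TA. The groups overlapped, and the log2 difference was 0.05 ± 0.21 (SE; adjusted p = 0.926, edgeR). A count over the whole gene does not tell deleted exons from intact ones, and the Cre acts in only part of the tissue's cells, so these values do not check the genotype labels.

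At day 3, 19 of 25 adult fibre genes were lower in labelled mutant muscle than in WT muscle, and 17 of 35 cell cycle genes and 3 of 15 genes for chemokines of monocytes and eosinophils and their receptors were higher. Of 15499 genes tested, 1392 were called (8.98%), of which 405 (2.61%) were higher and 987 (6.37%) lower in labelled mutant TA. The lower genes differed more, with a median log2 difference of -1.25 and 640 of 987 beyond 1 in size. The higher genes had a median of 0.72, and 65 of 405 passed 1. The libraries of the 2 groups did not overlap for 25% of all tested genes, and the median over all genes was -0.02. In a bulk sample, fewer cells of a type and less RNA per cell cannot be told apart. Without WT library 3 the count fell to 431 genes (23 higher, 408 lower), and without labelled mutant library 2 to 698. A fit to the 6 day 3 libraries alone, which estimates the spread from those libraries only, called 257 (18 higher, 239 lower), and all of these were among the 1392.

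The 15 lower genes with the largest differences were mostly genes of the contractile, membrane and energy machinery of skeletal muscle. Scn4b, a sodium channel subunit, measured 2.59, 2.78 and 9.23 CPM in labelled mutant TA against 26.9, 33.1 and 71.2 CPM in WT TA, a log2 difference of -3.12 ± 0.54 (SE; adjusted p = 0.00125, edgeR). Ampd1, the AMP deaminase of muscle, measured 11.7, 18.1 and 37.8 CPM against 102, 152 and 307 CPM in WT, 8.18-fold lower. Pygm, the muscle glycogen phosphorylase, was 5.79-fold lower, and Cacna1s, the voltage sensor of the fibre membrane, 5.52-fold lower. Myoz3 and Ky, which encode proteins of or around the sarcomere, were 6.61-fold and 6.46-fold lower. Perm1, a regulator of muscle energy metabolism, Asb15, Klhl33, Sypl2 and the glutamine transporter gene Slc38a3 were between 5.51-fold and 5.88-fold lower. The rule that named them required libraries of the 2 groups that do not overlap. Leaving out 1 library removed the call of Asb15 (adjusted p = 0.0624 without WT library 3), Perm1 (0.0586 without labelled mutant library 2) and Klhl33 (0.0867 without WT library 3 and 0.0818 without labelled mutant library 2), and of none of the other 12 (edgeR). Without labelled mutant library 3 the log2 differences of Scn4b, Ampd1, Cacna1s and Perm1 were larger, at -4.00, -3.62, -3.18 and -3.22. Without labelled mutant library 2 that of Asb15 was -3.47, and without WT library 3 those of Klhl33 and Ky were -1.67 and -2.06.

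Among 25 genes of the adult sarcomere and its calcium handling, 19 were lower, none was higher and 6 did not pass the test, with a median log2 difference of -1.75. Pvalb, the calcium buffer of fast fibres (chr15), measured 53.4, 78.2 and 154 CPM in labelled mutant TA, against 454, 587 and 1004 CPM in WT TA. Every labelled mutant library was below every WT library, with a log2 difference of -2.83 ± 0.34 (SE; adjusted p = 3.158e-05, edgeR). Atp2a1, the fast calcium pump of the sarcoplasmic reticulum (chr7), measured 903, 2049 and 3120 CPM against 7926, 8976 and 18285 CPM in WT. Myh4, the fastest adult myosin heavy chain (chr11), measured 610, 1866 and 2289 CPM against 6898, 6594 and 11093 CPM in WT, 5.16-fold lower. Ckm, the muscle creatine kinase, measured 510, 1530 and 2076 CPM against 5147, 5287 and 9123 CPM in WT. Within each of these genes labelled mutant library 1 was lowest and WT library 3 highest. The giant sarcomere genes Ttn and Neb, the skeletal actin gene Acta1 and the troponin genes Tnnt3, Tnni2 and Tnnc2 were also called lower. The 6 members that were not called were the slow fibre genes Myh7, Myl2, Myl3, Tnnt1, Tnni1 and Tnnc1. Of these, Myh7, the slow myosin heavy chain, measured 1.38, 0.617 and 4.08 CPM in labelled mutant TA against 1.93, 7.22 and 3.96 CPM in WT TA. The summed level of the list ran from 8511 to 25643 CPM in labelled mutant libraries and from 58525 to 106603 CPM in WT libraries. Leaving out any 1 day 3 library left between 17 and 20 members called.

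**Figure D1:**
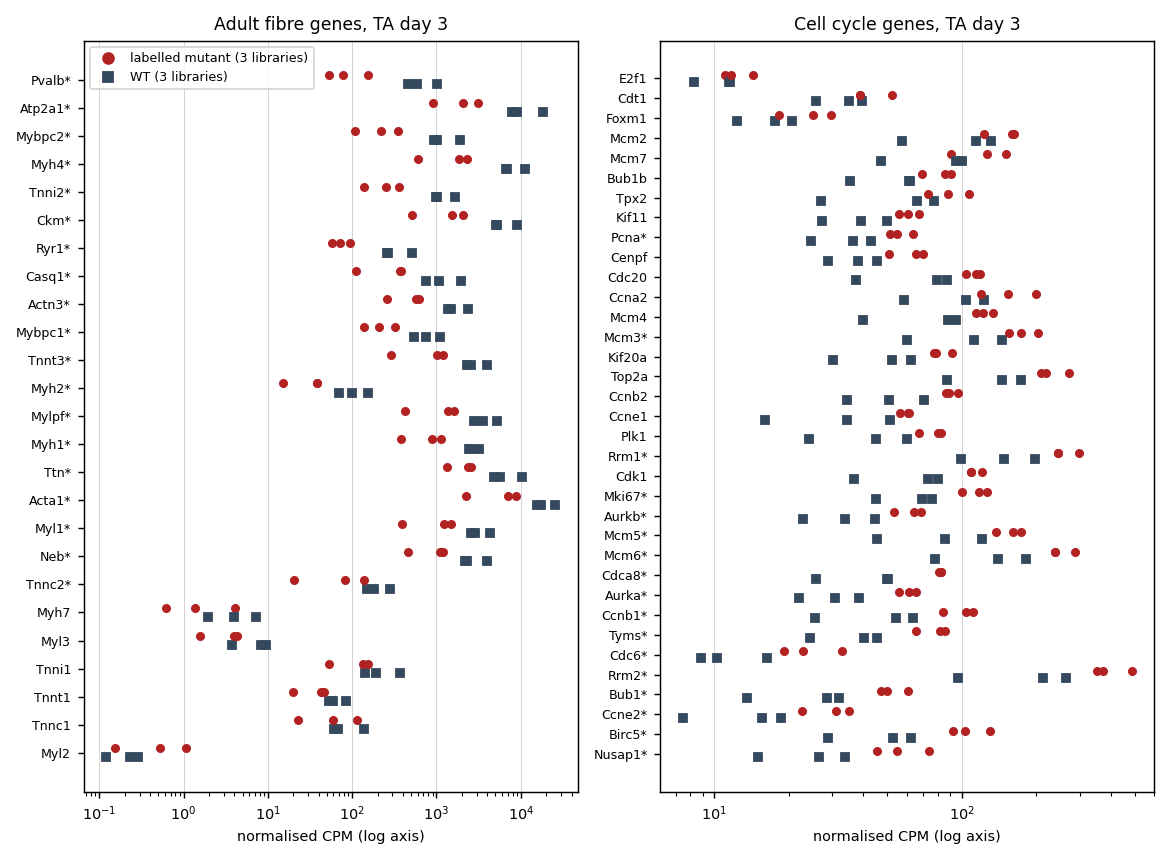
Normalised CPM (log axis) of each tested member of the adult fibre list (left, 25 genes) and the cell cycle list (right, 35 genes) in the 3 labelled mutant libraries (circles, upper in each row) and the 3 WT libraries (squares), with an asterisk on called genes. In the 19 called fibre genes every labelled mutant library lies below every WT library, and in the 17 called cell cycle genes every one lies above.

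The windows upstream of 3 of these genes show what the lower fibre genes have in front of their start sites. They cover 250 bases before the RefSeq start in GRCm38.p6, 5′ to 3′ on the gene's strand, and were chosen as the called members with the largest differences whose window holds an E-box (CANNTG, capitals) and whose start lies in a GENCODE transcript. The motif is its own reverse complement, so both strands give the same matches. E-boxes are the sequence that myogenic factors such as MyoD bind. At least 1 E-box stood in the window of 17 of the 21 list members with a window, and in 66.2% of all 32851 windows. Atp2a1 lies at chr7:126463074-126463323 (minus strand), Mybpc2 at chr7:44524670-44524919 (minus strand) and Ckm at chr7:19410844-19411093 (plus strand).
Atp2a1: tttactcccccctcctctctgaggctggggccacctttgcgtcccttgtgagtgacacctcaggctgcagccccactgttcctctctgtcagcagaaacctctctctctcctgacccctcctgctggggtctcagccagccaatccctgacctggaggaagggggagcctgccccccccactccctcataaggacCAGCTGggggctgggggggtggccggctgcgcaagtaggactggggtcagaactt
Mybpc2: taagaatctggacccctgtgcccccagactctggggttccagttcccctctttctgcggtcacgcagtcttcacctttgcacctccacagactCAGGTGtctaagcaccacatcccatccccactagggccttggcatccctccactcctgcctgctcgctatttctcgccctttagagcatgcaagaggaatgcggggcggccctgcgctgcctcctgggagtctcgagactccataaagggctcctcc
Ckm: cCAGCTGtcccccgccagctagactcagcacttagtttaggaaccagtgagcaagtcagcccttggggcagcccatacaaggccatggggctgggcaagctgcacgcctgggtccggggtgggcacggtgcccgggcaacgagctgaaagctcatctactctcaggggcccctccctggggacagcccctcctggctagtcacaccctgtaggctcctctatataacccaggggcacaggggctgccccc
A match is a description of the letters in the window, and whether a factor binds there was not measured.

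The share of counts was also measured over a wider set of 1143 genes, called fibre-associated here, which holds all 25 genes of the list. The set was defined after the data had been seen. Its genes had at least 10 CPM in WT quadriceps and at least 4-fold more than in sorted WT stromal cells after CTX. This rule also lets in genes of other cell types that are low in stromal cells. Vwf and Cldn5 of endothelium and Abcc9 of pericytes are in the set, so its share is not of fibre RNA alone. The set took 9.92%, 13.7% and 14.6% of the counts in labelled mutant TA at day 3, against 22.1%, 23.2% and 31.2% in WT TA. No labelled mutant library reached the lowest WT library. Without the 25 genes of the list it took 8.70%, 10.5% and 11.2% in labelled mutant TA against 14.7%, 15.4% and 18.8% in WT TA, and 562 of the remaining 1118 genes were lower and 5 higher. Of the 987 lower genes 581 were in this set, and of the 405 higher genes 5. With these genes left out of the fit, 559 genes were called, 214 higher and 345 lower. At day 1 the share was 41.8% ± 4.32 in labelled mutant TA and 38.2% ± 3.02 in WT TA (SD, n = 4 each). At day 7 it was 55.1% ± 3.11 in labelled mutant TA and 56.5% ± 2.84 in WT TA (SD, n = 3 each), so the groups lay apart at day 3 and overlapped at days 1 and 7. The part of this share in the other differences at day 3 was not tested. The fit without the set leaves the counts of the other genes unchanged, so it cannot show that part.

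**Figure D2:**
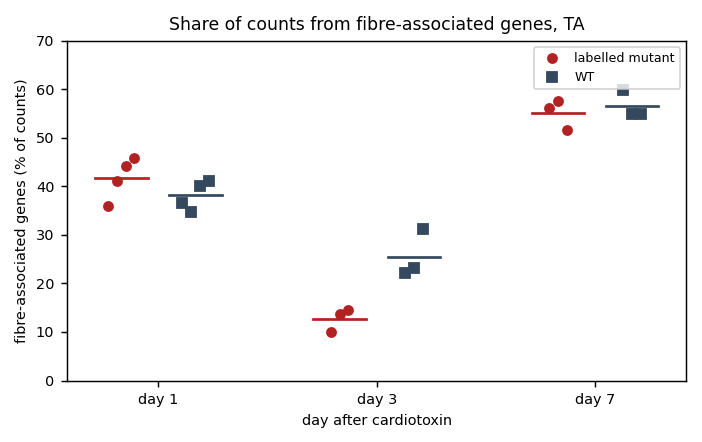
Percent of counts from the 1143 fibre-associated genes in each TA library at days 1, 3 and 7 after cardiotoxin, labelled mutant (circles) left of WT (squares), with bars at the group means. At day 3 the labelled mutant libraries lie between 9.92% and 14.6% and the WT libraries between 22.1% and 31.2%.

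Several muscle forms of the enzymes of energy use were lower in labelled mutant TA. Of 22 genes of glycolysis and hypoxia 7 were lower and none was higher, with a median of -0.45. Pfkm, the muscle phosphofructokinase, measured 106, 312 and 343 CPM in labelled mutant TA against 691, 755 and 1166 CPM in WT TA (log2 -1.78 ± 0.31, SE; adjusted p = 0.000866, edgeR). Aldoa, Gapdh, Eno3, Tpi1, Hk2 and Gpi1 were the other lower genes; the symbol Aldoa is annotated at more than 1 locus. Eno3, the muscle enolase, lost its call without WT library 3 (adjusted p = 0.132, edgeR). Eno1, the enolase of most tissues, measured 424, 585 and 564 CPM against 493, 484 and 391 CPM in WT, and Pfkp, the platelet-type phosphofructokinase, 88.9, 103 and 87.8 CPM against 62.1, 82.3 and 66.6 CPM in WT, and neither was called. Of 26 genes of mitochondrial respiration 8 were lower and none higher, with a median of -0.37 and no member above 0. Cox6a2, a muscle form of a cytochrome oxidase subunit, measured 17.1, 58.3 and 48.1 CPM against 102, 115 and 182 CPM in WT. Cox8b and Cox7a1, also muscle forms, were 2.82-fold and 2.45-fold lower, and Ppargc1a, a coactivator that drives mitochondrial genes, 2.65-fold lower. Cox7a1 lost its call without WT library 3 (adjusted p = 0.100) and without labelled mutant library 3 (0.052, edgeR), and without labelled mutant library 2 its log2 difference was -2.04 in place of -1.29. Counts from the mitochondrial genome made up 1.82% to 2.33% of labelled mutant libraries and 2.69% to 3.60% of WT libraries, and 7 of its 25 tested genes were lower.

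Of 14 developmental muscle genes 4 were called, all lower, and no member was positive (median -0.86). Mybph, a myosin binding protein of young fibres, measured 37.8, 63.8 and 97.2 CPM in labelled mutant TA against 173, 215 and 264 CPM in WT TA (log2 -1.70 ± 0.32, SE; adjusted p = 0.00216, edgeR). Actc1, the cardiac actin gene that regenerating fibres express, was 3.19-fold lower and Xirp1, which encodes a protein of remodelling fibres, 3.01-fold lower. Both lost their calls without WT library 3 (adjusted p = 0.0767 and 0.0684) and without labelled mutant library 2 (0.0561 and 0.069, edgeR). Myl4, an embryonic myosin light chain gene, was called with overlapping libraries, and its adjusted p without WT library 3 was 0.282 (edgeR). Myh3, the embryonic myosin heavy chain, measured 133, 471 and 392 CPM in labelled mutant TA against 389, 539 and 1112 CPM in WT TA and was not called (adjusted p = 0.152, edgeR).

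Of 19 regulators of myogenesis and fusion 6 were lower. They included Stac3, a partner of the calcium release complex, Mef2c and Mef2d, which encode transcription factors, and Igf2 and Igfbp5. Mef2c measured 66.3, 111 and 116 CPM in labelled mutant TA against 145, 176 and 275 CPM in WT TA. The adjusted p was 0.0764 for Mef2c and 0.0774 for Stac3 without WT library 3 (edgeR). Myod1, the transcription factor of committed myoblasts, measured 305, 207 and 340 CPM against 315, 279 and 219 CPM in WT (log2 0.07 ± 0.17, SE). Myog, which acts at the onset of differentiation, measured 564, 1202 and 1125 CPM against 961, 1111 and 939 CPM in WT (log2 -0.06 ± 0.32, SE). Pax7, the marker of muscle stem cells, measured 5.01, 6.87 and 6.80 CPM against 3.61, 7.22 and 5.13 CPM in WT. The libraries of the 2 groups overlapped for all 3. Of the 12 stem cell and myoblast markers 1 was called lower (8.33%, against 6.37% of all tested genes). It was Des (3-fold lower), which encodes desmin and is abundant in fibres as well.

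Cell cycle genes moved the other way. Of 35 genes tested 17 were higher and none lower, all 35 differences were positive, and the median was 0.81. Birc5, which encodes survivin of the dividing chromosome complex, measured 103, 131 and 92.0 CPM in labelled mutant TA against 62.4, 52.7 and 28.8 CPM in WT TA (log2 1.18 ± 0.31, SE; adjusted p = 0.0208, edgeR). Rrm2, the ribonucleotide reductase subunit of S phase, measured 374, 488 and 351 CPM against 264, 214 and 96.4 CPM in WT. Mki67, the proliferation marker Ki-67, measured 126, 99.9 and 117 CPM against 76.0, 69.0 and 45.2 CPM in WT. In these 3 genes each labelled mutant library was above each WT library, and WT library 3 was lowest. Nusap1 of the mitotic spindle, the cyclin genes Ccne2 and Ccnb1 and the checkpoint kinase gene Bub1 were between 2.09-fold and 2.32-fold higher. The DNA replication genes Mcm3, Mcm5, Mcm6, Pcna, Rrm1, Tyms and Cdc6 were also called. The summed level of the list ran from 3542 to 4106 CPM in labelled mutant libraries and from 1277 to 2764 CPM in WT libraries. The count depended on WT library 3. Without it no member was called, and without labelled mutant library 1 or 2 there were 7 in each case. Without the fibre-associated genes 14 were called.

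Upstream of Mki67 (chr7, minus strand; window chr7:135716380-135716629, GRCm38.p6) the 250 bases before the RefSeq start hold 2 copies of TTTGAA (capitals; reverse complement TTCAAA, no overlap between copies), the core of an element known from promoters of mitotic genes. The window is shown because Mki67 was the only called member of the list with this motif in a matched window. The motif stood in 7 of the 28 list members with a window, and in 16% of all 32851 windows.
Mki67: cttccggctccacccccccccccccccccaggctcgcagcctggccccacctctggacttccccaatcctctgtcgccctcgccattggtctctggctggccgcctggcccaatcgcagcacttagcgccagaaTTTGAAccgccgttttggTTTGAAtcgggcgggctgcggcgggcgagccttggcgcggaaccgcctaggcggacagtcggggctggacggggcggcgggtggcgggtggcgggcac

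Among the 15 higher genes with the largest differences, 3 were chemokine genes. Ccl7 (chr11), which encodes a chemokine for monocytes, measured 84.1, 193 and 46.7 CPM in labelled mutant TA against 43.1, 22.6 and 18.8 CPM in WT TA (log2 1.95 ± 0.43, SE; adjusted p = 0.00863, edgeR). Ccl2, the main ligand of the monocyte receptor Ccr2, measured 147, 219 and 78.9 CPM against 54.8, 43.8 and 38.4 CPM in WT. Ccl12, a mouse chemokine that also binds Ccr2, measured 12.4, 25.5 and 10.4 CPM against 5.90, 5.20 and 4.66 CPM in WT. All 3 lie near each other on chr11 and were highest in labelled mutant library 2. Without that library their log2 differences were 1.21 (Ccl7), 1.30 (Ccl2) and 1.11 (Ccl12), in place of 1.95, 1.70 and 1.63, and their adjusted p-values were 0.0799, 0.092 and 0.147, and without WT library 3 they were 0.0664, 0.0800 and 0.0881 (edgeR). The other 12 of 15 genes for chemokines of monocytes and eosinophils and their receptors were not called, and the receptor Ccr2 measured 167, 268 and 157 CPM in labelled mutant TA against 160, 191 and 158 CPM in WT TA.

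Of the remaining large increases, Mcm8, Pole2 and Hells act in DNA replication or chromatin, Fignl1 and Ddias in DNA repair or damage response, and Oip5 at the centromere. They were between 2.25-fold and 3-fold higher. Tex30 measured 20.6, 37.5 and 23.8 CPM in labelled mutant TA against 12.5, 10.5 and 9.09 CPM in WT TA (log2 1.36 ± 0.24, SE; adjusted p = 0.000667, edgeR) and was called under every alternative tried. Rap2b, a small GTPase gene, Bend4 and Pla2g4a, the cytosolic phospholipase that frees arachidonic acid, were 2.44-fold, 2.38-fold and 2.32-fold higher. Of the 31 higher genes named here by rule, 29 lost their calls without WT library 3 and 25 without labelled mutant library 2. Of 59 lower ones, 23 and 20 did.

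Monocyte and macrophage markers gave a small positive median of 0.18 over 27 genes, with 22 above 0. None of these markers was called higher and 1 was called lower (3.70%, against 6.37% of all tested genes). Their summed level ran from 19921 to 28627 CPM in labelled mutant libraries and from 15970 to 20528 CPM in WT libraries. Adgre1, the F4/80 antigen of macrophages, measured 460, 474 and 456 CPM in labelled mutant TA against 340, 415 and 304 CPM in WT TA and was not called (adjusted p = 0.308, edgeR). The lower member was Arg1, an arginase of alternatively activated macrophages, with 6.56, 5.63 and 4.76 CPM in labelled mutant TA against 46.1, 9.25 and 10.7 CPM in WT TA. The log2 difference was -1.97 with all libraries and -0.84 without WT library 1 (adjusted p = 0.0159 and 0.0732, edgeR). The list of phagocytosis, lipid and lysosome genes had 3 of 27 members higher (11.1%, against 2.61% of all tested genes). None was lower, and the median was 0.20. Msr1, a scavenger receptor of macrophages, measured 152, 144 and 131 CPM against 82.5, 68.1 and 48.7 CPM in WT (log2 1.10 ± 0.26, SE; adjusted p = 0.00875, edgeR). Plin2, which coats lipid droplets, measured 447, 757 and 526 CPM against 336, 412 and 279 CPM in WT. Cd36, a fatty acid transporter that fibres express as well, measured 767, 756 and 758 CPM against 499, 531 and 445 CPM in WT. The groups did not overlap in these 3. Without WT library 3 the adjusted p was 0.0762 for Msr1 and 0.139 for Plin2, and without labelled mutant library 2 it was 0.136 for Plin2 (edgeR). In iron and haem handling 1 of 14 genes was higher (7.14%, against 2.61% of all tested genes). It was Blvra (biliverdin reductase, 1.60-fold), with an adjusted p of 0.143 without WT library 3 (edgeR).

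Several chaperones of the endoplasmic reticulum were higher. Of 21 genes of its stress response and of ATF4, 6 were higher and 1 lower, with a median of 0.24. Hspa5, the chaperone BiP, measured 1122, 1500 and 1063 CPM in labelled mutant TA against 835, 839 and 563 CPM in WT TA. Hsp90b1, a chaperone of the same compartment, measured 917, 871 and 677 CPM against 591, 547 and 393 CPM in WT, without overlap. Sdf2l1, Pdia4, Manf and Creld2 also rose, and the 6 differences lay between 0.66 and 0.78 on the log2 scale. The lower member, Trib3, is a target of ATF4 and was weakly expressed, with 0.54 to 1.55 CPM in labelled mutant TA against 2.21 to 4.24 CPM in WT. The adjusted p-values of Sdf2l1, Pdia4 and Manf were 0.132, 0.107 and 0.125 without WT library 3 (edgeR). Small heat shock genes of muscle were lower: Hspb1, Hspb7, Hspb8 and their partner Bag3 were the 4 called of 14 heat shock genes. The median of that list was 0.24 and its mean -0.09, which differ in sign. Hspb8 measured 430, 474 and 698 CPM in labelled mutant TA against 905, 982 and 849 CPM in WT TA. Without WT library 2 the adjusted p-values of Hspb1, Hspb7, Hspb8 and Bag3 were 0.0679, 0.115, 0.0547 and 0.142 (edgeR).

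The list of cytokines and growth factors of repair had 1 of 24 members called higher (4.17%, against 2.61% of all tested genes). It was Gdf15, a stress-induced cytokine, with 5.35, 10.1 and 2.04 CPM in labelled mutant TA against 2.53, 0.289 and 1.05 CPM in WT TA. The libraries overlapped, and without labelled mutant library 2 the log2 difference was 1.504 in place of 2.21 (adjusted p = 0.246, edgeR), and without WT library 1 it was 3.14. Among 23 immediate early genes Fosl1 and Myc were higher (8.70%), with a median of -0.01. Nr4a1 was lower (4.35%, against 6.37% of all tested genes). Myc measured 44.9, 57.7 and 44.3 CPM in labelled mutant TA against 34.1, 29.3 and 23.5 CPM in WT TA, and Nr4a1 11.7, 19.1 and 16.7 CPM against 27.7, 35.2 and 53 CPM in WT. Fosl1, Myc and Nr4a1 had adjusted p-values of 0.205, 0.114 and 0.0588 without WT library 3 (edgeR). Sqle was the 1 called member of 18 genes of cholesterol synthesis (5.56%). It was 1.83-fold higher, with an adjusted p of 0.162 without WT library 3 (edgeR).

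Among 18 markers of the stromal cells in which the Cre acts, 2 were lower (11.1%, against 6.37% of all tested genes). None was higher, and the median was -0.21. Pdgfra measured 90.8, 91.6 and 81.4 CPM in labelled mutant TA against 79.0, 72.2 and 55.1 CPM in WT TA, without overlap but below the threshold of the test (log2 0.35 ± 0.16, SE; adjusted p = 0.172, edgeR). Smoc2, a matricellular protein gene, measured 123, 126 and 145 CPM against 151, 180 and 234 CPM in WT, and Cd55, a complement regulator on stromal cells, 11.2, 19.8 and 18 CPM against 20.2, 30.2 and 37.4 CPM in WT. Their adjusted p-values were 0.317 and 0.174 without WT library 3 (edgeR). The summed stromal level ran from 8759 to 16403 CPM in labelled mutant libraries and from 15339 to 17082 CPM in WT libraries. None of 19 collagen genes was called, with a median of -0.31. Against the WT mean, the list median was log2 0.03, -0.93 and -0.05 in labelled mutant libraries 1, 2 and 3. Col1a1 measured 3297, 2240 and 4281 CPM in labelled mutant TA against 3741, 4239 and 4162 CPM in WT TA, lowest in labelled mutant library 2.

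In 3 further lists of matrix, protease and TGF-beta family genes few members were called, against a background of 6.37% of all tested genes called lower, and no member was called higher. Eln (elastin; 1 of 32 matricellular and crosslinking genes), Timp3 and Adamts1 (of 20 proteases and inhibitors) and Tgfb3 and Mstn (of 24 genes of the TGF-beta family) were lower. Mstn, which encodes myostatin made by fibres, measured 1.04, 4.40 and 3.30 CPM in labelled mutant TA against 15.5, 13.8 and 16.2 CPM in WT TA (log2 -2.27 ± 0.40, SE; adjusted p = 0.000811, edgeR). Timp3, an inhibitor of metalloproteases, measured 16.1, 9.26 and 21.0 CPM against 21.7, 27.9 and 47.3 CPM in WT. Without WT library 3 the adjusted p-values were 0.075 for Eln, 0.107 for Timp3, 0.107 for Adamts1 and 0.0851 for Tgfb3 (edgeR). Of 11 insulin-like growth factor genes 4 were lower: Igf2, the noncoding RNA gene H19 beside it, and the binding protein genes Igfbp4 and Igfbp5. H19 measured 165, 114 and 220 CPM in labelled mutant TA against 304, 314 and 564 CPM in WT TA. Igf1 measured 169, 189 and 172 CPM against 168, 168 and 153 CPM in WT and was not called. Without WT library 3 the adjusted p was 0.168 for Igf2 (log2 -1.06, in place of -1.67 with all libraries), 0.126 for H19 and 0.0936 for Igfbp5, and without WT library 1 it was 0.0712 for Igfbp4 (edgeR).

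Of 16 genes of the YAP pathway and mechanosensitive channels, Tmem63b and Tead1 were lower (12.5%) and none was higher. Over all tested genes 6.37% were called lower. Tead1, a DNA-binding partner of YAP, measured 35.9, 46.2 and 42.3 CPM in labelled mutant TA against 69.6, 63.6 and 82.7 CPM in WT TA (log2 -0.79 ± 0.13, SE; adjusted p = 0.000534, edgeR). Tmem63b, which encodes a channel opened by membrane tension, measured 20.6, 15.8 and 27 CPM against 36.1, 40.2 and 45.9 CPM in WT. Both separated the groups, and both stayed below an adjusted p of 0.05 when the fibre-associated genes were left out (0.00201 and 0.00476, edgeR). Yap1 and Ccn2, a target of YAP, were not called, with log2 differences of -0.10 and -0.19. Of 14 p53 targets Ccng1 and Eda2r were lower (14.3%), the first by log2 -1.09 and the second by -0.66. Eda2r had an adjusted p of 0.153 without WT library 3 (edgeR).

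Of the 44 gene lists 19 had no called member. Of the other 25, calls went only lower in 17, only higher in 6 and both ways in 2. Of 12 pericyte and smooth muscle markers 3 were lower (25%), Abcc9, Acta2 and Des, and of 10 neutrophil markers 1 (10%), Lcn2. Over all tested genes 6.37% were called lower. The pericyte list summed to 1457 to 2233 CPM in labelled mutant libraries and 3268 to 4617 CPM in WT libraries. Without Des, which fibres express as well, the list summed to 709 to 797 CPM in labelled mutant libraries and 765 to 1316 CPM in WT libraries, and these ranges overlap. Neutrophil markers summed to 111 to 114 CPM in labelled mutant libraries and 83.0 to 179 CPM in WT libraries. Without WT library 3 the adjusted p of Acta2 was 0.415, and without labelled mutant library 2 that of Lcn2 was 0.0674 (edgeR). No member was called among the markers of endothelium (16 tested), tenocytes (8), eosinophils, mast cells and basophils (9), dendritic cells (13), T and NK cells (11), B cells (5), Schwann cells (10), adipocytes (10), red cells (5) or skin (2). Vwf and Cldn5 of endothelium had log2 differences of -0.67 and -0.37 (adjusted p = 0.0932 and 0.122, edgeR). Of defining markers, Epx of eosinophils and Krt14, Krt1, Krt15 and Lor of skin were at 0 in all day 3 libraries. None of 30 interferon-stimulated genes was called, although 26 were above 0 (median 0.30). The lists of antigen presentation, complement, NF-kB, Notch, neutrophil chemokines, other chemokines and sex-linked genes also held no call. The part of these cell types in the day 3 differences was not tested.

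**Figure D3:**
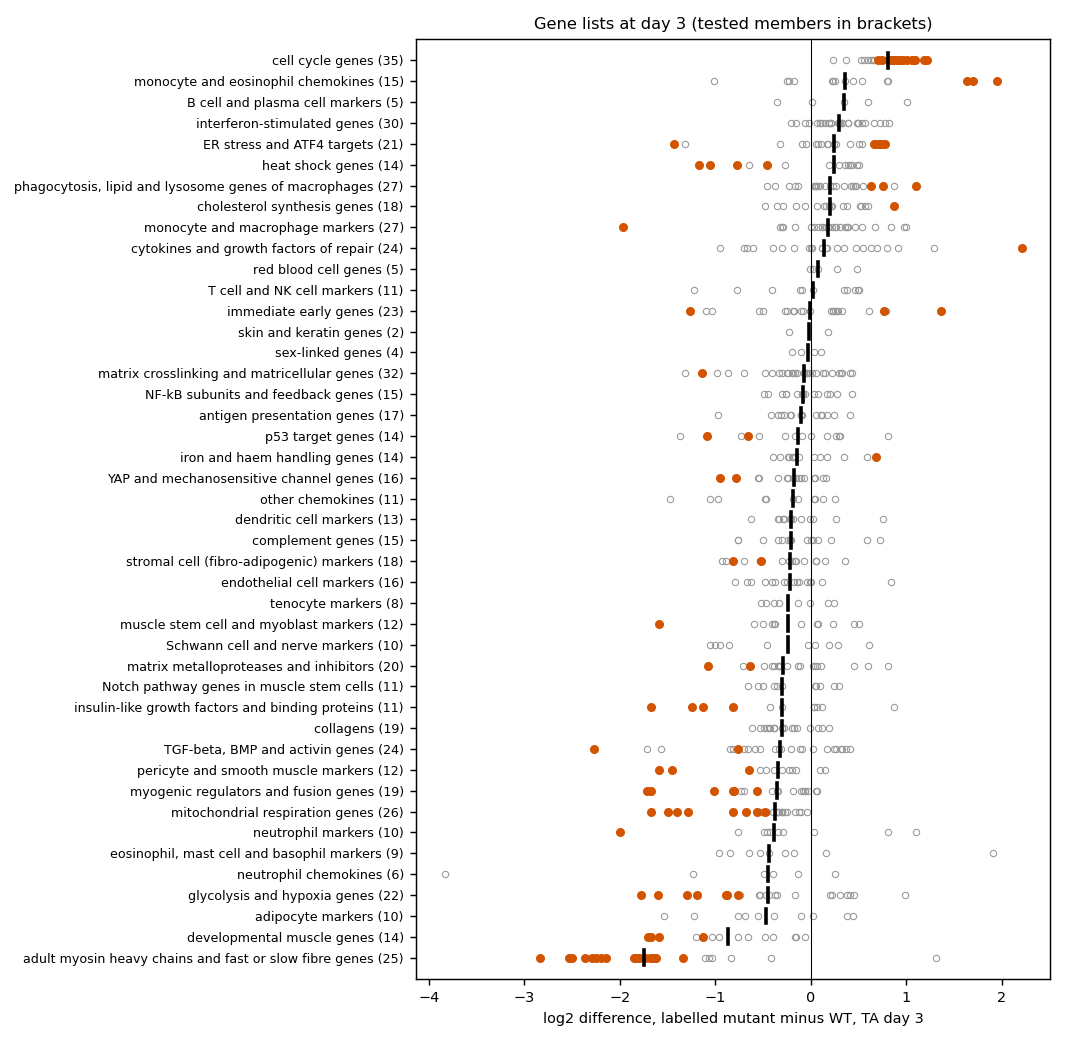
Log2 difference (labelled mutant minus WT) at day 3 of each tested member of 44 gene lists, ordered by the list median (black bar), with called members filled. The adult fibre list lies lowest with a median of -1.75 and the cell cycle list highest with 0.81.

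The same comparison at day 1 called 12 genes (0.0774%), all lower, and at day 7 none. At an unadjusted p under 0.05 there were 893 and 737 genes, against 3577 at day 3, and DESeq2 called 42 at day 1 and 0 at day 7. In uninjured quadriceps none of 11856 tested genes was called by edgeR or by DESeq2, with 771 at an unadjusted p under 0.05. The change of the genotype difference was tested directly. Between day 3 and day 1 it passed the threshold in 906 genes (5.85%; 711 or 4.59% lower and 195 or 1.26% higher at day 3), and between day 3 and day 7 in 254 genes (1.64%; 233 or 1.5% lower and 21 higher). Of the 1392 genes called at day 3, 770 (55.3%) were among the 906 and 244 (17.5%) among the 254, but the contrasts share the day 3 libraries. Leaving out 1 library gave 413 to 1189 genes for the first test, with 413 as the lowest, and 64 to 623 for the second.

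Pvalb and Myh4 had their lowest means at day 3 in both genotypes. Pvalb averaged 2399 ± 460 CPM in labelled mutant TA and 2044 ± 302 CPM in WT TA at day 1 (SD, n = 4 each), 95.3 ± 52.6 CPM and 682 ± 287 CPM at day 3, and 3643 ± 744 CPM and 4291 ± 1445 CPM at day 7 (SD, n = 3 each). Myh4 averaged 1588 ± 873 CPM in labelled mutant TA and 8195 ± 2514 CPM in WT TA at day 3, and 30375 ± 7045 CPM and 31608 ± 12712 CPM at day 7 (SD, n = 3 each). By the direct tests, 17 of the 25 adult fibre genes differed in their genotype difference between day 3 and day 1, and 13 between day 3 and day 7. Birc5 averaged 5.64 ± 1.21 CPM in labelled mutant TA and 13.7 ± 5.88 CPM in WT TA at day 1 (SD, n = 4 each), 109 ± 19.9 CPM and 48.0 ± 17.3 CPM at day 3, and 7.53 ± 2.83 CPM and 7.97 ± 3.47 CPM at day 7 (SD, n = 3 each). The median of the cell cycle list was -0.60 at day 1 and 0.12 at day 7, and 22 of its 35 members differed between day 3 and day 1 and 1 between day 3 and day 7. At day 1 the list held 2 of the 12 called genes. Ccl2 averaged 503 ± 144 CPM in labelled mutant TA and 539 ± 48.7 CPM in WT TA at day 1 (SD, n = 4 each), 148 ± 69.9 CPM and 45.7 ± 8.34 CPM at day 3, and 4.22 ± 2.89 CPM and 4.64 ± 3.64 CPM at day 7 (SD, n = 3 each). Its day 3 difference exceeded that of day 1 by log2 1.80 (adjusted p = 0.0473) and did not pass the test against day 7 (log2 1.88, adjusted p = 0.198, edgeR).

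**Figure D4:**
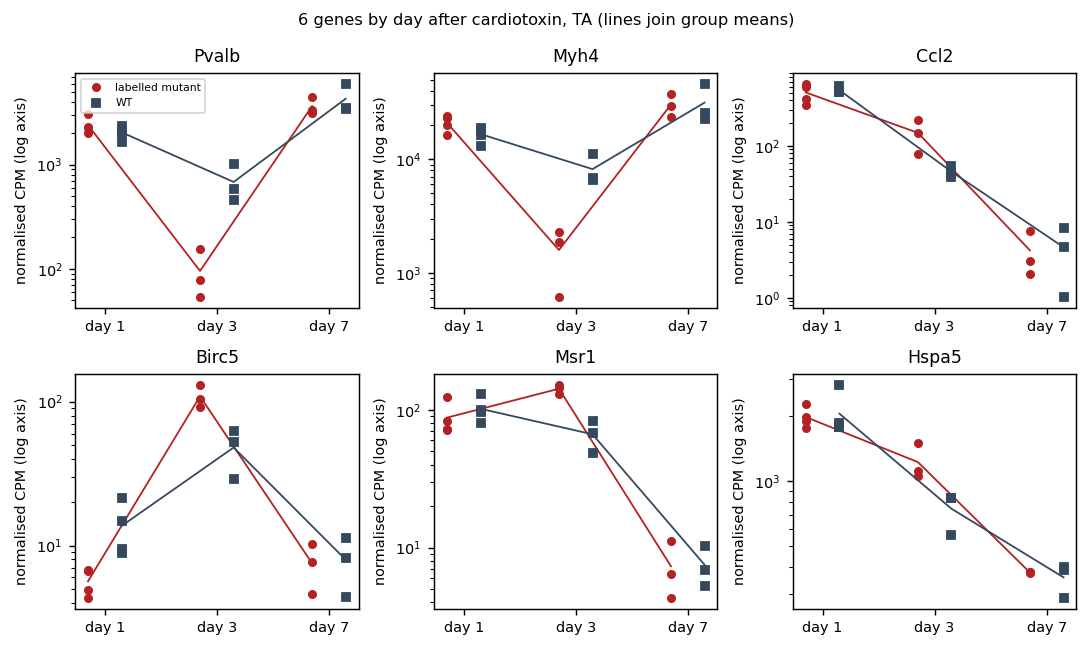
Normalised CPM (log axis) of 6 genes in each TA library at days 1, 3 and 7 after cardiotoxin, labelled mutant (circles) left of WT (squares), with lines through the group means. Pvalb and Myh4 reach their low point at day 3, with means of 95.3 and 1588 CPM in labelled mutant TA and 682 and 8195 CPM in WT TA, and Birc5 peaks there.

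Genes were also ranked by their change between WT day 1 and WT day 7. That change shares no library with the day 3 comparison but is part of the same fit. Pvalb and Myh4 were lowest and Birc5 highest at day 3 in both genotypes, so the ranking does not give day 3 a place on the course of repair. The genes that increased include lower genes already named above, such as Ky, Sypl2, Slc38a3, Klhl33, Perm1 and Asb15. Those that decreased include higher genes already named, such as Ccl2, Ccl7, Ccl12, Msr1, Hspa5, Sdf2l1, Manf, Creld2, Sqle, Fosl1 and Myc. They also include the lower genes Arg1 and Lcn2. The calls of these genes are not a separate result in either list. Of the 200 genes with the largest increase by day 7, 88 (44.0%) were lower in labelled mutant TA at day 3 and none was higher, with a median of -1.04. Of the 200 with the largest decrease, 21 (10.5%) were higher and 4 (2.00%) lower, with a median of 0.23. Lists of 100 and 400 genes gave medians of -1.09 and -0.89 for the increase and 0.28 and 0.25 for the decrease. The background over all tested genes was 6.37% lower and 2.61% higher.

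**Figure D5:**
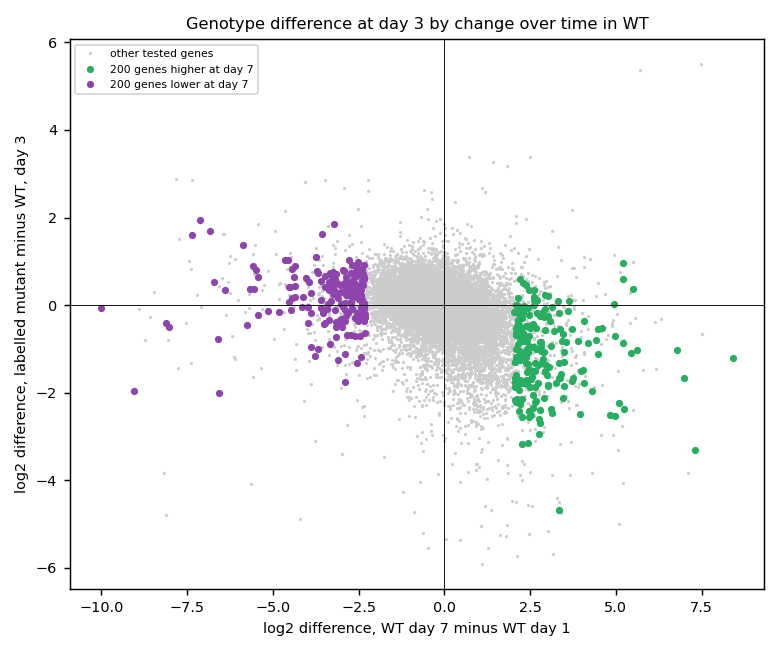
Log2 difference between WT day 7 and WT day 1 (x axis) and between labelled mutant and WT at day 3 (y axis) for the 15499 tested genes, with the 200 genes of the largest increase and the 200 of the largest decrease in colour. The first set has a median of -1.04 on the y axis and the second of 0.23.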

How the data were processed

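Per the labels' protocols, TA muscles were homogenised in TRIzol and 2 ng of RNA per library went into polyA libraries made by Immunological Genome Project methods. Per the submitters' processing notes, STAR 2.7.3a aligned the reads to mm10 and featureCounts counted them. The strand setting, the annotation and the treatment of multi-mapping reads are not stated in the sources, so overlapping, antisense or near-identical genes cannot be told apart. The authors' deposited raw counts per gene symbol (55011 symbols, 90 libraries) were used as they stood, and coordinates came from GENCODE M21, which held 52936 of the symbols (96.2%).

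The 20 TA libraries were fitted together in R 4.3.3 with edgeR 4.0.16 (filterByExpr with a minimum count of 10, TMM scaling, robust quasi-likelihood test, Benjamini-Hochberg adjustment over all tested genes), and quadriceps by itself. The comparisons at days 1, 3 and 7, their differences and the change in WT were contrasts of that fit. A chi-square statistic of counts averaged at least 5.41 per gene for any pair of replicates, so no pair was the same library counted again. It cannot tell separate preparations of the same sample from separate animals. The fit was also run on simulated counts with planted changes at day 3. The simulation gave all groups the same spread per gene, so it cannot check the calls against a wider spread at day 3.

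The comparison and the 44 gene lists were chosen with earlier results of these data known. The genes named are Piezo1, the 15 called genes per direction with the largest difference among those without overlap whose higher group averaged 10 CPM or more, up to 4 called members per list (for some lists without calls, the 2 of smallest p), and 4 per direction for each change between days. Other genes named were chosen after their values were seen. Some genes under this rule and in the lists are not reported here. Alternatives tried were DESeq2 1.42.0, RLE scaling, no filter, leaving out each library, only the 6 libraries compared, and the replicate number as a block. Leaving out the fibre-associated genes and thinning to 4051973 counts were added after the data had been seen.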

Additional observations from a re-analysis of the deposited data

Results flagged for a closer look

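The genotype difference (labelled mutant minus WT) changed between days by a direct test of the interaction in the edgeR fit, in 906 genes between day 3 and day 1 and in 254 between day 3 and day 7. Between day 3 and day 1, the 4 named genes with the largest positive change all belong to mitosis: Nusap1 (log2 2.80, adjusted p = 0.00265), Ccnb1 (2.57, 0.00184), Knl1 of the kinetochore (2.55, 0.000508) and Birc5 (2.46, 0.00219). Their log2 differences at day 3 itself were 1.22, 1.06, 0.86 and 1.18, and the rest of each change came from a negative difference at day 1. Without WT library 3 their day 3 adjusted p-values were 0.195, 0.199, 0.254 and 0.144 (edgeR). The largest negative changes were in Scn4b (log2 -3.77, adjusted p = 0.00239), Ampd1 (-3.59, 0.00128), Asb15 (-3.43, 0.00749) and Kcng4, a potassium channel subunit gene (-3.37, 0.00734). Between day 3 and day 7, positive changes were named in Ccne2 (log2 1.96, adjusted p = 0.0201), Bend4 (1.96, 0.0497), Tex30 (1.67, 0.0174) and Slc35d2 (1.59, 0.0415). Negative ones were named in Ampd1 (log2 -2.77, adjusted p = 0.0262), Clu, which encodes clusterin (-2.69, 0.00247), Pvalb (-2.60, 0.00600) and Hmcn2, a gene of the basement membrane protein hemicentin (-2.59, 0.0373). At day 3 Clu measured 9.15, 9.65 and 11.5 CPM in labelled mutant TA against 47.6, 34.1 and 69.8 CPM in WT TA. Its call held without each library and without the fibre-associated genes, but the latter fit leaves the counts of Clu unchanged.

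In WT TA at day 1, library 2 was flagged as an outlier for Ccl2, at 611 CPM against 510, 513 and 520 CPM. It was also flagged for Hspa5, at 2805 CPM against 1781, 1787 and 1870 CPM. For Ccl2 the other values lay close together, and labelled mutant libraries at day 1 ran from 349 to 652 CPM. These were 2 of 16 sets of 4 values looked at in this way, and chance gives about 1 in 20. Both values come from that 1 library, which is not in the day 3 groups but enters the test of day 3 against day 1.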

How the results depend on the processing

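All 1392 genes called at day 3 that another setting tested kept their direction there, and RLE scaling (1389 calls), DESeq2 (1814), no filter (1608) and thinning (1336) stayed within 1.5 times. With only the 6 day 3 libraries 257 genes were called, without the fibre-associated genes 559, and with 1 day 3 library left out 431 to 1721, lowest without WT library 3. For the adult fibre list leaving out 1 library gave 17 to 20 members. The cell cycle list had 27 called members without a filter and 2 with only the day 3 libraries, and 0 to 23 with 1 library left out. Day 1 had 92 calls without a filter, 42 by DESeq2 and 5 to 18 with 1 library left out, and day 7 had 10 without a filter and 0 with any library left out. Quadriceps had 20 without a filter and 0 to 1 with 1 library left out. The change between day 3 and day 1 gave 413 to 1189 genes with 1 library left out. The change between day 3 and day 7 gave 637 without a filter, 583 by DESeq2 and 64 to 623 with 1 library left out. The cause of these moves was not tested. Settings with fewer libraries did not always call fewer genes. At day 3 there were 1721 calls without labelled mutant library 3 and 1517 without WT library 1. The main fit takes a shared spread per gene from days 1, 3 and 7 together. Chi-square values per gene between replicates ran from 8.28 to 33.5 at day 3, 6.52 to 25.2 at day 1 and 5.41 to 19.4 at day 7. The part of a wider spread at day 3 in the fall to 257 genes was not tested. Of the 90 named genes called, 23 kept their call in every setting that tested them. With only the 6 day 3 libraries, 25 of the 31 named higher genes and 34 of the 59 named lower ones lost their calls. The replicate number as a block gave 1594 calls at day 3, 21 at day 1, 585 for the change between day 3 and day 7 and 25 of the cell cycle list. Same-numbered libraries correlated in their deviations by 0.03 to 0.13 at day 3, and not every library correlated best with its own number, so the numbers were not taken as a pairing. The change between WT days could not be fitted with the block.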

Other observations

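Among genes outside the lists, Clu and Hmcn2 were lower in labelled mutant TA at day 3 by log2 -2.31 and -2.34 and were not in the fibre-associated set. Hmcn2 measured 2.59, 2.93 and 10.7 CPM in labelled mutant TA against 13.9, 24.1 and 47.0 CPM in WT TA. Without labelled mutant library 3 its log2 difference was -3.33. Of 23 named lower genes outside the fibre-associated set, 22 kept their call when that set was left out of the fit. That fit leaves the counts of these genes unchanged, so the part of the fibre-associated share in their differences was not tested.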
